A study of Mus musculus with 15 samples.

Results

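This account concerns 178 of the 14392 genes in the deposited table, whose transcripts fell between the zygote and the 2-cell stage in WT embryos and stood lower again in 2-cell embryos without maternal Usp16. They were selected on the measured values themselves. The mean of the 2 WT zygote libraries had to be more than 3-fold above the mean of the 2 WT 2-cell libraries, and the WT 2-cell mean more than 3-fold above the cKO 2-cell mean. Of 1263 genes that fell more than 3-fold in WT, 182 passed both ratios, and the 4 that carry a Zfp symbol (Zfp616, Zfp709, Zfp750 and Zfp957) were left out. Both ratios are therefore given as descriptions, with no test. WT denotes embryos of C57BL/6 mice with intact Usp16. The cKO embryos came from Usp16 fl/fl;Gdf9-Cre mothers mated to WT males, so they lacked the maternal product and the maternal allele but carried a paternal allele. Gdf9-Cre deletes in oocytes from the primordial follicle stage on. Each of the 8 libraries pooled 10 embryos, with 2 libraries for each genotype and stage, and was made by Smart-seq2, in which cDNA synthesis starts from an oligo-dT primer.

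A fully grown oocyte is transcriptionally silent and stores mRNA for the first cell cycles. After fertilization these maternal transcripts are removed in steps, first by deadenylation and decay factors that the egg itself supplies and then by pathways that need new transcription from the embryonic genome. Usp16 encodes a deubiquitinase that takes ubiquitin off histone H2A, the mark that PRC1 writes. In a pooled embryo library, fewer molecules per embryo, shorter poly(A) tails and a larger amount of other RNA cannot be told apart.

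Usp16 itself was listed at 184 and 187 FPKM in WT zygotes and at 16.8 and 21.99 in cKO zygotes. At the 2-cell stage it read 168 and 183 in WT and 168 and 84.8 in cKO, so there the targeted gene does not check the labels. FPKM is the number of fragments per kilobase of transcript scaled to the mapped fragments of the library, and every value under 1 had been set to 1, which is called the floor here. The sum of FPKM lay between 547752 and 593317 in 7 libraries and reached 770989 in cKO 2-cell replicate 2. Over the 178, the 2 libraries of a group differed by a median of 1.17-fold in WT zygotes, 1.12-fold in cKO zygotes, 1.27-fold in WT 2-cell and 1.41-fold in cKO 2-cell embryos, the widest of the 4. At the 2-cell stage the log2 difference of cKO from WT had a median of -0.38 over all genes, and scaling by median ratios removed this shift. The 40 listed oocyte and egg markers out of 41 summed to between 50143 and 55745 FPKM in zygotes. Of 26 markers of cumulus and granulosa cells, 7 were in the table, they summed to between 187 and 228 FPKM in zygotes, and 3 of them were at the floor in both genotypes there.

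In zygotes the 178 transcripts were of middling to very high abundance, with a median WT mean of 58.4 FPKM and a range from 10.1 to 6576. The cKO zygotes had a median of 56.0, and the 2-cell embryos had 12.9 in WT and 2.56 in cKO. Together they made up between 9.05% and 9.91% of the summed FPKM of each zygote library. Their share was 2.2% and 2.09% in the WT 2-cell libraries and 0.414% and 0.482% in the cKO 2-cell libraries. The largest WT means in 2-cell embryos belonged to Gm97, named Oosp3 in RefSeq and a member of the oocyte secreted protein family, to Btg4 and to Mphosph6.

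**Figure D1:**
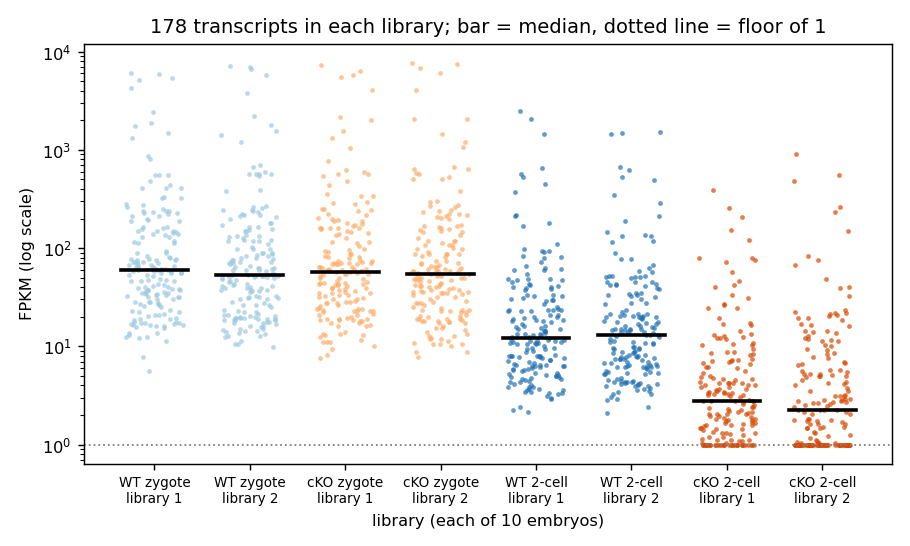
FPKM on a log axis of all 178 transcripts in each of the 8 libraries, with 1 point per gene, a black bar at the median and a dotted line at the floor of 1. The 4 zygote libraries have near-equal medians, the WT 2-cell libraries lie lower and the cKO 2-cell libraries lowest, with 32 and 57 genes at the floor.

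For every one of the 178, both WT 2-cell libraries lay below both WT zygote libraries, and both cKO 2-cell libraries lay below both WT 2-cell libraries. The rule favours such a separation, which over all genes occurred in 26.4% for the WT stages and in 43.4% for the 2-cell genotypes. The fall in WT ranged from 3.02-fold to 15.3-fold with a median of 4.10-fold. The further difference between WT and cKO 2-cell embryos ranged from 3.01-fold to 20.6-fold with a median of 4.12-fold. Over all genes, 8.78% fell more than 3-fold in WT and 13.5% were more than 3-fold lower in cKO 2-cell embryos. In 57 of the 178, every library of the higher group was more than 3-fold above every library of the lower group at both steps.

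The floor limits many of these ratios. Both cKO 2-cell libraries were at 1 for 25 genes and a single one for 39, so for these 64 the ratio to cKO is a lower bound. None of the 178 was at the floor in a zygote or a WT 2-cell library. The floor was met by 56 of the 72 genes with a WT 2-cell mean of 10 or less, by 8 of the 57 between 10 and 30 and by none of the 49 above 30. The median ratio of WT to cKO was 3.66 among the 17 genes above 100 FPKM and 4.14 among the 32 between 30 and 100. Just inside the threshold for cKO were Ubash3b at 3.01-fold, the kinase gene Cdk20 at 3.01-fold and Senp8 at 3.03-fold, and just outside were A730082K24Rik at 2.99-fold, Slco3a1 at 2.98-fold and Car10 at 2.96-fold. Just inside the threshold for the fall in WT were Tk2, Psrc1 and Plekhg1 at 3.02-fold, 3.04-fold and 3.04-fold, and just outside were Tsga14, Arid5b and Klf7 at 2.99-fold, 2.99-fold and 2.98-fold.

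The scaling of the libraries decides much of the membership. After median-ratio scaling 128 genes passed the rule, of which 81 were among the 178, or 45.5% of the 178 and 63.3% of the 128. All 178 kept a WT 2-cell mean above the cKO mean under that scaling, with a median of 2.85-fold and a lowest value of 1.99-fold. After scaling to equal sums 216 genes passed, 170 of them shared. Without cKO 2-cell replicate 1, 222 genes passed with 153 shared, and without replicate 2, 222 passed with 149 shared.

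Of the 178, 101 could be sorted by known function into 7 groups, after their membership was known. The first holds 11 genes for deadenylation, translation and RNA handling. Btg4 (mm9 chr9:50924106-50927980), the adaptor that brings the CCR4-NOT deadenylase to maternal mRNA, was at 5126 and 5780.1 in WT and 5843 and 6041 in cKO zygotes, and then 2058 and 1457 in WT and 208 and 483 in cKO 2-cell embryos. The mean dropped from 1757 ± 425 (SD, n = 2) in WT to 345 ± 194 (SD, n = 2) in cKO 2-cell embryos, a ratio of 5.09. Its 2 cKO libraries differed by a larger fold than the WT libraries did, and both lay far below WT. Cnot6l (mm9 chr5:96499352-96593190), a catalytic subunit of that deadenylase, had 187 and 255 in WT and 176 and 222 in cKO zygotes, and then 44.8 and 51.2 in WT and 8.56 and 9.08 in cKO 2-cell embryos. It was tight within each group and 5.44-fold lower in cKO than in WT 2-cell embryos.

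The other RNA factors showed the same order of groups, which the rule asks of the means. Dazl, a germ cell RNA-binding protein that controls translation, was at 413 and 564 in WT and 546 and 632 in cKO zygotes, and then 71.4 and 57.5 in WT and 19.2 and 21.1 in cKO 2-cell embryos, and it had already lost most of its level in WT, 7.57-fold. Eif4e1b, the cap-binding protein of oocytes, read 238 and 213 in WT and 239 and 167 in cKO zygotes, and then 93.2 and 44.8 in WT and 8.405 and 16.6 in cKO 2-cell embryos. Its WT 2-cell libraries differed by about as much as the cKO libraries did, without overlap. Eif4e3, another cap-binding protein of the eIF4E family, was at 48.4 and 62.97 in WT and 12.4 and 9.43 in cKO 2-cell embryos. Mphosph6, a protein associated with the RNA exosome, was the third most abundant of the 178 in 2-cell embryos, with 5381 and 6700.0 in WT and 6311 and 7663 in cKO zygotes, and then 1444 and 1482 in WT and 393 and 556 in cKO 2-cell embryos. It lay near the threshold for cKO, at 3.08-fold. Gspt2, which encodes a translation release factor and is named after its values were seen, was at 6.55 and 6.82 in WT 2-cell embryos and at the floor in both cKO libraries, at least 6.68-fold lower. Across the 11 genes the ratio of WT to cKO ran from 3.08 to 6.68 with a median of 4.15.

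Stretches of sequence of 2 kinds are shown for these transcripts, because the removal and the translation of maternal mRNA depend on its 3′ end. The first is the end of the 3′ UTR, where a cytoplasmic polyadenylation element (searched as TTTTAT or TTTTAAT on the sense strand, in DNA letters) can lie next to the poly(A) signal (AATAAA or ATTAAA). The 2 kinds of motif may share letters in other transcripts. In 8 of the 165 members with an annotated 3′ UTR, or 4.85%, the element stood upstream of the signal with both inside 30 bases, compared with 4.94% of 13068 genes of the table. The sites of 5 of them are printed 5′ to 3′ with the element and the signal in capitals, from the GENCODE M1 transcripts of mm9.
Bcl2l10: tTTTTAATaacttcaaattcttAATAAAtg
Bpgm: ttgtatccaTTTTATAATAAAacgggcctt
Txnip: aagttTTTTAATgacaaaAATAAAtgttct
Rraga: actaTTTTATcagcaagatATTAAAatgta
Rgs17: agtacctTTTTATaagaAATAAAatatgtt
Within the last 100 bases, an element was found in 21.8% of the members, 21.8% of 600 other declining genes and 18.5% of all genes, and a poly(A) signal in 80.0%, 81.5% and 78.9%.

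The second is the promoter of Btg4 and of Bmp15, which are abundant egg-specific members. RefSeq on GRCm38.p6 places the Btg4 window, 250 bases upstream to 50 bases downstream of a start site, at chr9:51115751-51116050 on the plus strand and the Bmp15 window at chrX:6320675-6320974 on the minus strand. Capitals mark CACCTG, a form of E-box, in Btg4 and TAATTA and TATAAA (the latter on the opposite strand) in Bmp15.
Btg4: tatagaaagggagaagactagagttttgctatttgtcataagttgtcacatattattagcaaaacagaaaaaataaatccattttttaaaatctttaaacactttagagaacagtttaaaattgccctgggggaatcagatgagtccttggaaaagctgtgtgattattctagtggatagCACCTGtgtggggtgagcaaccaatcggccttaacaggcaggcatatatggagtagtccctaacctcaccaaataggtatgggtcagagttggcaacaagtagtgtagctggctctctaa
Bmp15: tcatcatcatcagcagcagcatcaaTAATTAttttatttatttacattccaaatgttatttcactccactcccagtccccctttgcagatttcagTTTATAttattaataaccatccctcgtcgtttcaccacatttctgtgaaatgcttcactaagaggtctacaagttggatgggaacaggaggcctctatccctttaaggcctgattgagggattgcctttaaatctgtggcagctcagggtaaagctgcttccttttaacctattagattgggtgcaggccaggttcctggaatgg
On either strand CACCTG was present in 20.03% of all 27025 promoter windows, TAATTA in 5.31% and TATAAA in 14.2%. The Btg4 window holds 1 CpG and the Bmp15 window 2. A comparison of promoter composition over all members is void, since a window could be matched for 141 of the 178, or 79.2%.

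Transcription factors and cofactors formed the next group, with 12 genes. Obox5, a homeobox gene of the oocyte, was the most abundant of them at 4252 and 3812 in WT and 4099 and 4107 in cKO zygotes, and then 567 and 629 in WT and 121 and 234 in cKO 2-cell embryos. It fell 6.74-fold in WT and was 3.36-fold lower again in cKO. Lhx8, a LIM homeobox gene needed for oocyte development, was at 55.4 and 62.8 in WT and 50.1 and 59.4 in cKO zygotes, and then 16.04 and 20.3 in WT and 5.601 and 2.24 in cKO 2-cell embryos. Meis2, a TALE homeobox gene, had 47.9 and 77.1 in WT and 17.2 and 10.3 in cKO 2-cell embryos. Nfil3, a basic leucine zipper repressor, showed the largest listed ratio of the group, 10.5-fold, from 23.7 and 20.9 in WT and 2.81 and 1.46 in cKO 2-cell embryos. Tbpl2, the oocyte form of the TATA-binding protein and also named after its values were seen, was at 16.7 and 16.2 in WT zygotes, at 3.67 and 3.29 in WT 2-cell embryos and at the floor in both cKO 2-cell libraries. Tsc22d1, a leucine zipper gene, lay near the threshold with 110.5 and 114 in WT and 30.8 and 39.7 in cKO 2-cell embryos, and Runx1t1, a corepressor gene, had 11.1 and 12.6 in WT and 4.04 and 1.32 in cKO 2-cell embryos.

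Secreted factors, receptors, adhesion and signalling genes numbered 16. Bmp15 (mm9 chrX:5891225-5897839), the TGF-β family growth factor that the oocyte sends to its follicle cells, was even within each group, with 1883 and 1799.6 in WT and 2025 and 2074 in cKO zygotes, and then 531 and 536 in WT and 79.7 and 67.5 in cKO 2-cell embryos. The 2-cell mean dropped from 534 ± 3.13 (SD, n = 2) in WT to 73.6 ± 8.61 (SD, n = 2) in cKO, a ratio of 7.25. WT 2-cell embryos had 28.98% of the zygote level and cKO 2-cell embryos 3.59% of theirs. Rspo2, an R-spondin that enhances Wnt signalling, was at 42.8 and 58.7 in WT and 10.3 and 20.3 in cKO 2-cell embryos. Gng3, a G protein γ subunit, was at 435 and 232 in WT and 342 and 305 in cKO zygotes, and then 60.2 and 45.05 in WT and 11.97 and 12.2 in cKO 2-cell embryos, with cKO libraries that hardly differed. Gja4, which encodes the connexin of the junctions between oocyte and granulosa cells, fell 11.1-fold in WT, from 75.8 and 43.1 in WT zygotes and 5.303 and 5.44 in WT 2-cell embryos, and was at 1.46 and 1 in cKO 2-cell embryos, so its ratio to cKO is a lower bound. Serpine2, a protease inhibitor on the list of cumulus and granulosa markers, was at 135 and 133 in WT and 162 and 165 in cKO zygotes, and then 29.1 and 41.6 in WT and 12.03 and 7.64 in cKO 2-cell embryos. The part of follicle cells in its level was not tested. Il17f, a cytokine gene, and Umodl1 had 16.04 and 14.8 in WT and 4.61 and 5.48 in cKO 2-cell embryos and 37.2 and 34.4 in WT and 8.79 and 13.8 in cKO 2-cell embryos. Itga9, an integrin α subunit, was 8.16-fold lower in cKO, with 13.2 and 15.9 in WT and 1.95 and 1.61 in cKO 2-cell embryos.

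A group of 10 genes belonged to survival, checkpoint control, chromosomes and DNA repair. Bcl2l10 (mm9 chr9:75195565-75199439), an anti-apoptotic BCL2 family gene of the oocyte, had the second highest WT zygote mean of the 178, with 5989.7 and 7138 in WT and 7333 and 7448 in cKO zygotes, and then 647 and 662 in WT and 153 and 261 in cKO 2-cell embryos. Its fall in WT was 10.02-fold and the further difference 3.17-fold. Chek1 (mm9 chr9:36516067-36534650), the checkpoint kinase that acts when DNA replication is disturbed, was at 406 and 548 in WT and 440.3 and 509.7 in cKO zygotes, and then 80.7 and 78.2 in WT and 16.4 and 19.5 in cKO 2-cell embryos. The zygote groups overlapped. The 2-cell groups, which the rule had chosen to differ, had a ratio of 4.43. Aven, an apoptosis inhibitor, was at 62.1 and 43.4 in WT and 10.8 and 22.5 in cKO 2-cell embryos, and Hsf2bp, a meiotic recombination gene, at 11.4 and 19.9 in WT and 4.63 and 1.16 in cKO 2-cell embryos. Psrc1, a microtubule regulator of the spindle, had a ratio of 11.7-fold, from 16.9 and 19.6 in WT and 1.85 and 1.26 in cKO 2-cell embryos. Cdk20 stood at the threshold, with cKO libraries far apart at 12.8 and 2.03.

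The ubiquitin pathway contributed 9 genes. Trim61 (mm9 chr8:67536875-67542587), a TRIM family gene, was at 2452 and 2213 in WT and 2148 and 2075 in cKO zygotes, and then 369 and 498 in WT and 80.1 and 83.6 in cKO 2-cell embryos, and its neighbour on chromosome 8, Trim75, at 189.7 and 182 in WT and 181 and 168 in cKO zygotes, and then 38.6 and 51.1 in WT and 10.7 and 14.1 in cKO 2-cell embryos. The pair lies with a gap of 25330 bases, and reads of related family members may have been shared between them. Usp46, a deubiquitinase gene, had 331 and 383 in WT and 282 and 268 in cKO zygotes, and then 48.4 and 45.5 in WT and 14.2 and 10.2 in cKO 2-cell embryos, and each WT 2-cell library was more than 3-fold above each cKO library. Usp3, which like Usp16 encodes a deubiquitinase of H2A, was at 68.5 and 49.3 in WT and 61.1 and 57.2 in cKO zygotes, and then 15.2 and 14.96 in WT and 3.82 and 5.23 in cKO 2-cell embryos. Its zygote values overlapped between genotypes, and its 2-cell ratio was 3.32. Usp2 and Dcaf8 had 18.6 and 13.1 in WT and 6.04 and 2.72 in cKO 2-cell embryos and 30.8 and 33.4 in WT and 13.5 and 5.799 in cKO 2-cell embryos.

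Metabolism and mitochondria made up the largest group, with 28 genes whose ratios to cKO ran from 3.20 to 8.41. Genes of these functions were not counted over the table, so the size of a group is no result about the members. Bpgm, the mutase that makes bisphosphoglycerate in a branch of glycolysis, was at 1491 and 1409 in WT and 1308 and 1196 in cKO zygotes, and then 181 and 290.0 in WT and 75.3 and 48.5 in cKO 2-cell embryos. Parl, a rhomboid protease of mitochondria, had 168 and 214 in WT and 71.7 and 32.6 in cKO 2-cell embryos, and Pla2g4c, a phospholipase, 216 and 132 in WT and 24.5 and 40.4 in cKO 2-cell embryos. The pair of cKO libraries differed in opposite directions for these genes. Adss, an enzyme of AMP synthesis, was at 253 and 265 in WT and 249.6 and 265 in cKO zygotes, and then 79.5 and 89.5 in WT and 27.2 and 20.8 in cKO 2-cell embryos, with nearly equal zygote values. Mmadhc, a cobalamin-handling protein of mitochondria, had 40.2 and 41.2 in WT and 12.1 and 6.44 in cKO 2-cell embryos, and Mthfs, an enzyme of folate metabolism, 21.00 and 20.3 in WT and 2.52 and 4.98 in cKO 2-cell embryos. Txnip, which binds thioredoxin and restrains glucose uptake, was at 151 and 196 in WT and 289.7 and 244 in cKO zygotes, and then 29.5 and 39.5 in WT and 13.00 and 7.76 in cKO 2-cell embryos, and is 1 of 66 members whose cKO zygote mean was above the WT zygote mean. Gckr, the glucokinase regulator, reached 8.41-fold as a lower bound, with 10.1 and 8.46 in WT and 1.21 and 1 in cKO 2-cell embryos.

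A further 15 genes encoded parts of the cytoskeleton, centrosome and trafficking machinery, with a median ratio to cKO of 5.86, which was not tested against the other groups. Tubb3, a β-tubulin, was at 284 and 218 in WT and 188 and 155 in cKO zygotes, and then 61.4 and 67.97 in WT and 26.5 and 14.3 in cKO 2-cell embryos. Dpysl3, a collapsin response mediator, had 41.8 and 43.3 in WT and 10.2 and 4.02 in cKO 2-cell embryos. Dclk2, a doublecortin-like kinase on microtubules, was at 24.9 and 26.9 in WT and 3.52 and 1 in cKO 2-cell embryos, a ratio of at least 11.5. Cep164, a protein of the centriole appendages, was even within genotypes, with 23.1 and 18.3 in WT and 2.15 and 1.74 in cKO 2-cell embryos and a ratio of 10.6. Kpna7, the importin α of oocytes and early embryos, was at 157 and 103 in WT and 143 and 119 in cKO zygotes, and then 22.6 and 21.5 in WT and 9.503 and 2.89 in cKO 2-cell embryos. Its cKO libraries differed by 3.29-fold, so its distance from the threshold is uncertain. Sytl4, a vesicle exocytosis gene, had 23.7 and 19.9 in WT and 2.23 and 5.11 in cKO 2-cell embryos.

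**Figure D2:**
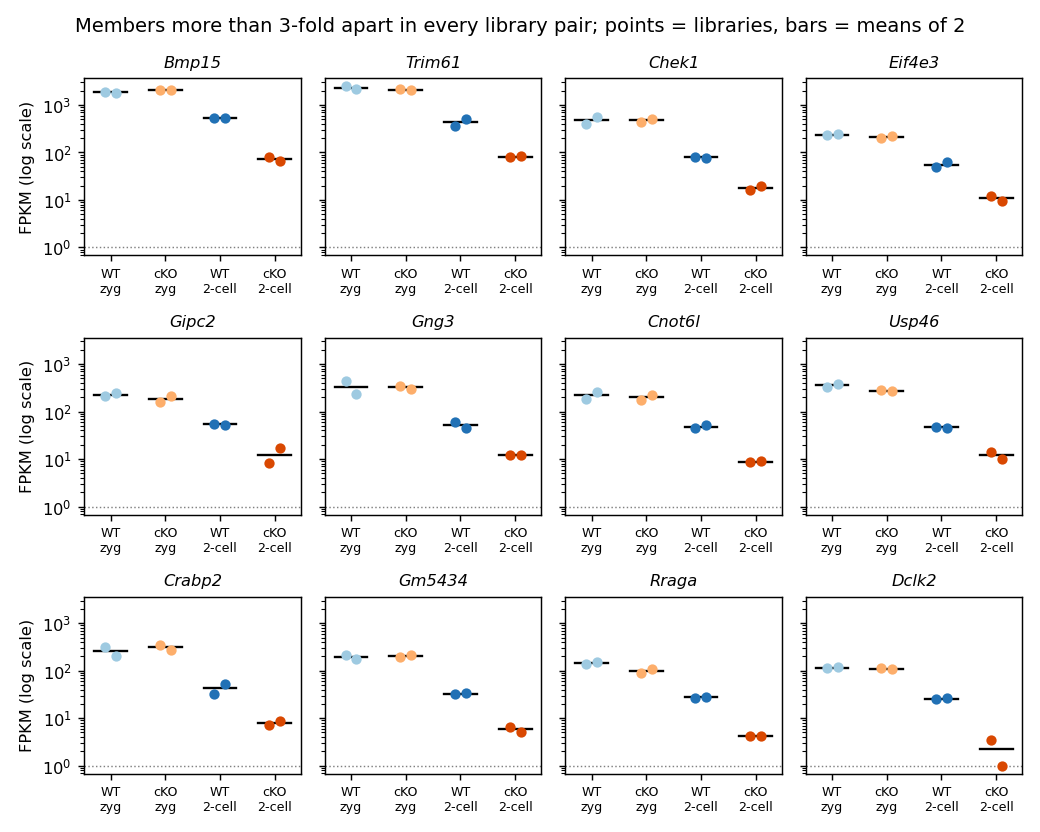
FPKM on a log axis of the 12 genes with the highest WT 2-cell mean among those more than 3-fold apart in every library pair, with points for libraries, bars for the means of 2 and a dotted line at the floor of 1. In each panel the zygote points of both genotypes sit above the WT 2-cell points, and the cKO 2-cell points sit below them.

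Several of the most abundant members lie outside these groups. Gm97 (mm9 chr19:11771545-11786364) was at 6111 and 7042 in WT and 5473 and 6868 in cKO zygotes, and then 2515 and 1518 in WT and 257 and 905 in cKO 2-cell embryos, and its cKO libraries differed by 3.52-fold. Tcl1b2, of the Tcl1 family, had 445 and 350.3 in WT and 57.7 and 149 in cKO 2-cell embryos. Gm13023 and Gm13103, named Pramel25 and Pramel27 in RefSeq, lie near each other on chromosome 4 and had 213 and 189 in WT and 40.4 and 75.2 in cKO 2-cell embryos and 65.98 and 50.9 in WT and 7.44 and 15.98 in cKO 2-cell embryos. The Tcl1 and Pramel genes belong to multigene families with similar copies, so the reads assigned to each are uncertain. AU022751, named after its values were seen, is Ezhip in RefSeq, an inhibitor of PRC2, the complex that writes H3K27me3. It was at 814 and 666 in WT and 571 and 532 in cKO zygotes, and then 92.7 and 147 in WT and 33.6 and 19.6 in cKO 2-cell embryos, and fell 6.17-fold in WT with a further 4.51-fold to cKO. Crabp2, a retinoic acid carrier, had 323 and 208 in WT and 343 and 276 in cKO zygotes, and then 32.6 and 52.2 in WT and 7.21 and 8.62 in cKO 2-cell embryos. Rraga, a GTPase that brings mTORC1 to lysosomes, was at 27.2 and 27.7 in WT and 4.19 and 4.27 in cKO 2-cell embryos. Gipc2, Lgsn, Gm527 and Gm5434 also passed in every library, with WT means in 2-cell embryos of 53.6, 20.4, 17.8 and 32.8.

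The largest listed ratio of WT to cKO 2-cell embryos, some of which are lower bounds, was that of Agr3, a protein disulfide isomerase family member. It read 142 and 98.7 in WT and 105 and 87.6 in cKO zygotes, and then 39.9 and 32.4 in WT and 1.77 and 1.73 in cKO 2-cell embryos. The 2 cKO libraries were nearly equal and close to the floor, and the ratio was 20.6. D4Bwg0951e, Lurap1l in RefSeq, was at the floor in both cKO libraries and 7.92 and 13.5 in WT, at least 10.7-fold higher. Atl1, a GTPase that shapes the endoplasmic reticulum, was at 14.5 and 16.1 in WT and 2.797 and 1 in cKO 2-cell embryos, and 1190007I07Rik at 20.1 and 22.2 in WT and 3.21 and 1.78 in cKO 2-cell embryos.

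The steepest fall in WT was that of Dnajb4, a heat shock cochaperone, from 484 and 568 in WT zygotes and 33.4 and 35.3 in WT 2-cell embryos, or 15.3-fold. It was at 7.104 and 11.3 in cKO 2-cell embryos. C86695, Fam90a1a in RefSeq, fell 14.02-fold and Nit2, an amidase, 11.4-fold. Magea10, Slc30a3 (a zinc transporter), Epsti1, Ptpre (a tyrosine phosphatase) and Olah (a thioesterase) fell between 8.501-fold and 10.2-fold.

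The cKO 2-cell libraries differed from each other by a median of 1.41-fold over the 178, and by more than 3-fold for 19 of them. No member differed by more than 3-fold between the WT 2-cell libraries. Replicate 1 was higher for 90 genes, replicate 2 for 63, and the 25 at the floor in both were equal. Among the 49 genes with a WT 2-cell mean above 30, replicate 2 was the higher one for 28. The widest gaps were those of 1110058L19Rik, with 1.65 and 11.7, of Pcid2, a subunit of the mRNA export complex TREX-2, with 6.83 and 1, and of A630095E13Rik, with 3.68 and 23.6. Both values stood below the WT libraries in each, as in all 178.

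The cKO zygote libraries took no part in the selection, so zygotes allow a test of whether the same transcripts already differed before the first cleavage, although the WT zygote libraries had been used. limma on log2(FPKM + 1), fitted over all 14392 genes in all 4 groups, called none of the 178 lower and none higher in cKO zygotes at an adjusted p of 0.05. Over all genes the same fit called 0.0% lower and 0.0208% higher, the latter being 3 genes. Usp16 itself, at a mean of 186 FPKM in WT and 19.4 in cKO zygotes, was thus not called lower. A fit that missed this change cannot show that the members were unchanged in zygotes. At an unadjusted p under 0.05, 3 members were lower and 1 was higher, which is 2.25% of the 178, compared with 2.83% of all genes. The median log2 difference between cKO and WT zygotes was -0.05, with quartiles of -0.17 and 0.09. Of the 178, 131 had genotype means within 1.2-fold of each other and 2 differed by more than 2-fold. No such count was made over all genes, so these counts do not set the members apart. The p-values measure the spread between libraries of pooled embryos only, and with 2 libraries on each side no exact permutation p is smaller than 0.333.

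Both cKO zygote libraries lay above both WT libraries for 25 members, or 14.04%, compared with 15.8% of all genes. Both lay below for 39, or 21.9%, compared with 10.2% of all genes. The rule asks for a high WT zygote mean and so favours cKO values below WT, which makes the latter share a description. Kcnn2, a calcium-activated potassium channel, was highest against WT, with 17.3 and 17.6 in WT and 41.7 and 35.7 in cKO zygotes, and then 4.64 and 4.72 in WT and 1 and 1 in cKO 2-cell embryos. Its log2 difference in zygotes was 1.10 ± 0.20 (SE) with a limma adjusted p of 0.686, and at the 2-cell stage, where the rule fixed the direction, both cKO libraries were at the floor. AA536875 was lowest, with 84.1 and 72.2 in WT and 20.8 and 49.9 in cKO zygotes, and then 15.5 and 15.1 in WT and 3.03 and 3.49 in cKO 2-cell embryos and a log2 difference of -1.24 ± 0.39 (SE). Rraga was at 139 and 149 in WT and 90.97 and 107 in cKO zygotes and D4Bwg0951e at 72.9 and 66.2 in WT and 42.9 and 43.6 in cKO zygotes, and neither passed after adjustment, with an adjusted p of 1.0 by limma for each. These 4 genes are named because of their zygote values.

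**Figure D3:**
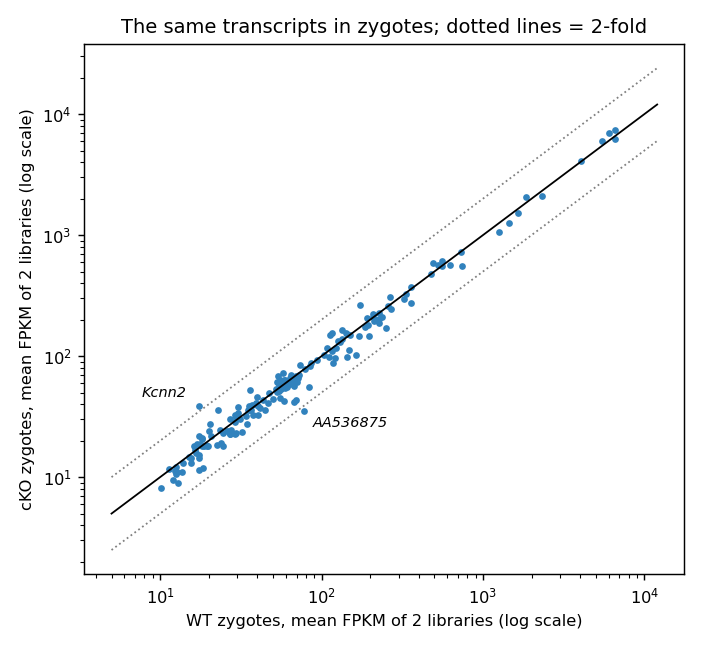
Mean FPKM of 2 cKO zygote libraries against the mean of 2 WT zygote libraries for the 178 transcripts, both axes on a log scale, with a solid line at equality and dotted lines at 2-fold. All points but Kcnn2 and AA536875 lie between the dotted lines.

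Each genotype was then followed from its own zygotes. WT 2-cell embryos held a median of 24.4% of the zygote level of these transcripts, between 6.54% and 33.1%. The cKO 2-cell embryos held a median of 5.74%, between 0.999% and 13.0%, and fell by a median of 17.4-fold from cKO zygotes. The other 632 genes that fell more than 3-fold in WT, with a WT 2-cell mean above 3 and no 3-fold deficit in cKO, had a median of 21.5% left in WT and 14.5% in cKO. Both sets had to fall more than 3-fold in WT, and the WT and cKO 2-cell values had divided them, so these percentages are a description. In the other direction 40 declining genes, 22 of them among the 632, were more than 3-fold higher in cKO than in WT 2-cell embryos, with medians of 21.2% left in WT and 79.9% in cKO.

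**Figure D4:**
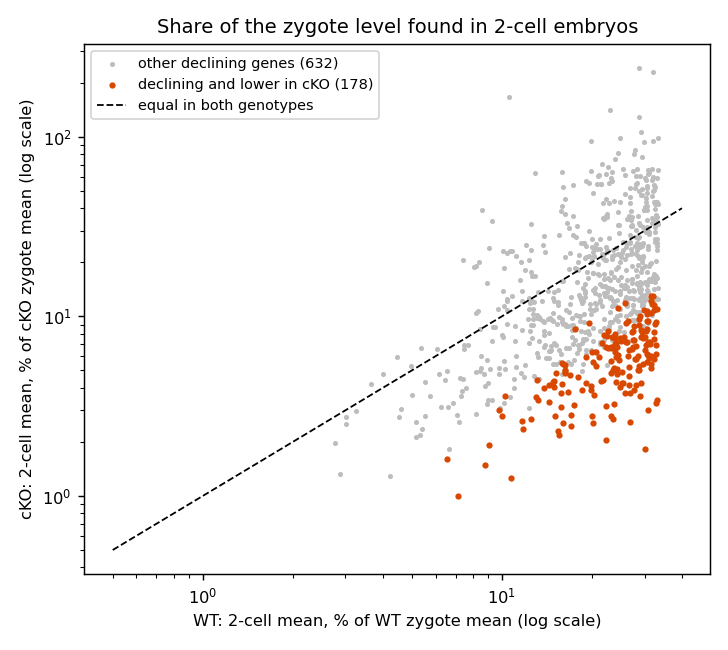
Mean FPKM in 2-cell embryos as a percentage of the zygote mean of the same genotype, WT on the horizontal and cKO on the vertical axis, both on a log scale, for the 178 transcripts (orange) and the 632 other declining genes (grey). The orange points lie below the dashed line of equality, between 0.999% and 13.0% in cKO.

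Since the same libraries chose and described the members, the rule was applied to single libraries and read in the others. The replicate 1 libraries of WT zygotes, WT 2-cell and cKO 2-cell embryos alone selected 227 genes, 1.58% of the table. In the replicate 2 libraries 75 of these passed both thresholds, or 33.0%, compared with 1.45% of all genes. That comparison mixes the fall in WT, which most genes do not show, with the difference to cKO. By group means, 20.9% to 23.2% of declining genes were more than 3-fold lower in cKO in the ranges of WT level given below. With 1 cKO 2-cell library left out these shares ran from 18.3% to 33.4%. Group means are therefore not a like base for single libraries. The 227 had a median ratio of WT to cKO of 3.20 in the libraries not used, compared with 1.40 over all genes, and 211 of them were higher in WT. In the other direction, 75 of 209 genes passed, or 35.9%, compared with 1.58% of all genes, with a median ratio of 2.82. At 2-fold in the measuring libraries, 142 of 227 and 131 of 209 passed. After median-ratio scaling, where the median ratio over all genes was 1.0, 51 of 172 and 51 of 168 passed, or 29.7% and 30.4%. The genes chosen under that scaling had median ratios of 2.28 and 2.65 in the libraries not used. Of them 144 and 153 were higher in WT. In both directions every chosen gene was also lower in the WT 2-cell than in the WT zygote library not used.

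The share of genes lower in cKO was also read by their trend in WT. A gene could be a member only if its WT 2-cell mean was above 3, so genes of like level were set side by side. Between 3 and 10 FPKM, 21.9% of 329 declining genes were more than 3-fold lower in cKO, compared with 27.2% of 1723 stable and 23.5% of 1398 rising genes. Between 10 and 30 FPKM the shares were 23.2%, 22.8% and 17.8%. Above 30 FPKM they were 20.9% of 235 declining, 16.4% of 1755 stable and 5.97% of 1172 rising genes. The share among declining genes was below that of stable genes between 3 and 10 FPKM, near it between 10 and 30 and above it over 30, where rising genes had the lowest share. No test was made of these differences. After median-ratio scaling the shares above 30 FPKM were 10.4%, 8.43% and 2.81%. Between 3 and 10 FPKM that scaling gave 12.1% of declining and 9.69% of stable genes. Without cKO 2-cell replicate 1, 18.3% of declining and 22.6% of stable genes above 30 FPKM were lower in cKO. Without replicate 2 the shares there were 27.2% and 18.7%. The order of declining and stable genes thus depended on the scaling and on single libraries.

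**Figure D5:**
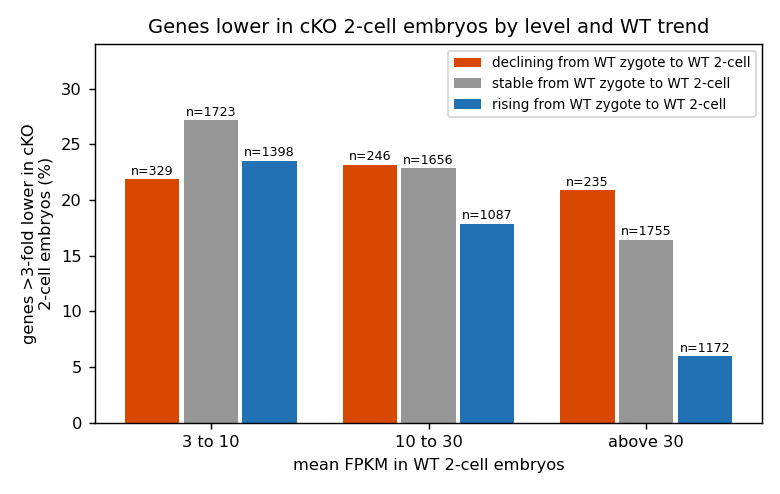
Percentage of genes with a cKO mean more than 3-fold under the WT mean in 2-cell embryos, by mean FPKM in WT 2-cell embryos and by trend from WT zygote to WT 2-cell (orange declining, grey stable within 3-fold, blue rising), with the number of genes above each bar. Declining genes stand at 20.9% to 23.2% in all 3 ranges, and rising genes above 30 FPKM at 5.97%.

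Gene lists of the egg and of RNA decay and handling were counted in the same way, over the members and over the table, in which the members make up 1.24%. Of 40 oocyte and egg markers 5 were members, namely Btg4, Bcl2l10, Bmp15, Kpna7 and Lhx8. On that list 21 genes, or 52.5%, fell more than 3-fold in WT and 12, or 30%, were more than 3-fold lower in cKO, and the median ratio of WT to cKO was 2.32 compared with 1.298 over all genes. The list was chosen with results of these data known. Other markers fell steeply in WT without a 3-fold deficit in cKO, such as the oocyte linker histone H1foo, which fell 27.4-fold in WT and had a ratio of WT to cKO of 0.795, and Rfpl4 with 18.1-fold and 1.32. Others were lower in cKO without a 3-fold fall in WT, such as the meiotic kinase Wee2 with a ratio of 8.35 and Oosp1 with 3.57.

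Of 60 listed genes for maternal mRNA decay and handling 3 were members, Btg4, Cnot6l and Dazl. The list is not of decay factors alone and also holds regulators of translation, such as Dazl. On this list 11 fell more than 3-fold in WT, or 18.3% compared with 8.78% of all genes, and 8 were more than 3-fold lower in cKO 2-cell embryos, or 13.3%, near the 13.5% of all genes. The latter include the decapping enzyme Dcp2 with a ratio of 5.66 and the poly(A) nuclease subunits Pan2 and Pan3 with 4.29 and 4.01, which were stable in WT. Usp3 was the only member among 38 listed genes for PRC1, PRC2 and H2A deubiquitinases. The list did not hold the member Usp46, whose product is the subject of work on H2A and H2B deubiquitination that the paper cites. Ezh2, the PRC2 methyltransferase, fell 5.26-fold in WT and had a ratio of WT to cKO of 1.14. No member was on the lists of 17 transcripts of the 2-cell stage, 9 sperm and spermatid markers or 52 meiosis and oocyte cell cycle genes. The rule fixed the first of these, since 0 of the 17 fell more than 3-fold in WT. It also limited the others, since only 1 of the 9 sperm and spermatid markers and 9 of the 52 meiosis genes fell that far. The meiosis list is not complete, and the meiotic recombination gene Hsf2bp was a member outside it. By symbol, 7 of 341 genes of ubiquitin families were members, 3 of 237 solute carriers and 27 of 1969 RIKEN clones and gene models.

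GENCODE M1 placed 169 of the 178 once on mm9, 164 of them as protein-coding genes. They were spread over all autosomes and the X chromosome. Chromosome 9 had the most, 15, or 8.88% of the placed members compared with 5.50% of the placed genes of the table. Chromosome 11 had 3, or 1.78% compared with 8.29%. There were 7 pairs of neighbouring members within 100000 bases, which include Trim75 and Trim61, Kpna7 and Arpc1b, Gipc2 and Dnajb4, and the overlapping 4931428L18Rik and Lgsn. Such pairs were not counted among other genes. Overlapping genes may have shared reads. The 3′ UTR had a median length of 803 bases in 165 members, 543 in 600 other declining genes and 803 in 13068 genes of the table. The coding sequence had a median of 1197, 1161 and 1299 bases, and the share of G or C at the last codon position had a median of 58.5%, 53.9% and 60.1%. These values are descriptive and were not tested.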

How the data were processed

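RNA-seq of 8 libraries was used, 2 each of WT and cKO zygotes and 2-cell embryos. The 7 ChIP samples of the series were not analysed here. According to the submitters' processing notes the tools were TopHat2 2.1.1 and Cufflinks 2.2.1 on mm9; the gene annotation is not given in the sources used here. The authors deposited FPKM values per gene, with every value under 1 set to 1, so sequencing depth stays unknown and the precision rests on 2 libraries a group. Because cDNA synthesis started from oligo-dT, RNA with a short poly(A) tail may be measured low.

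The members were found from group means with a 3-fold threshold. The members and gene lists were chosen with earlier results of these data known. No test was made on the 2 contrasts that chose them. cKO and WT zygotes were compared by limma 3.58.1 in R 4.3.3 on log2(FPKM + 1), a scale on which the change of low genes is understated, with 4 groups, a trend in the prior and Benjamini-Hochberg adjustment over all 14392 genes at 0.05. Both calculations were tested on simulated data. The simulation for limma gave every gene the same spread, so it does not measure how well the fit finds changes in these libraries. Groups came from the sample labels. The labels do not say whether libraries of a group came from separate matings. Genes named were Usp16, members at the top by level, fall or ratio, those beside the thresholds, those on the lists and up to 6 a function group by WT 2-cell mean; others are said to be named after their values were seen. Figures and summaries used Python 3.11.15, pandas 2.3.3 and matplotlib 3.10.9. Coordinates and transcripts were taken from GENCODE M1 on mm9, and promoters and newer names from RefSeq on GRCm38.p6; 21 members are listed there under a newer symbol. Alternatives covered the threshold, mean, pseudocount, filter, scaling, model, replicate block and each library left out.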

Additional observations from a re-analysis of the deposited data

Results flagged for a closer look

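For 25 of the 178 transcripts both cKO zygote libraries lay above both WT zygote libraries, while both cKO 2-cell libraries lay below both WT 2-cell libraries, as in all 178. The 25 are 14.04% of the members, under the 15.8% of all genes with that order in zygotes, so their number is no result about the members. Of those named here, the ratio of cKO to WT zygote means was 1.09 for Btg4, 1.13 for Bcl2l10, 1.11 for Bmp15, 1.22 for Serpine2 and 1.54 for Txnip. It was 1.34 for 1110058L19Rik, 1.14 for Epsti1, 2.22 for Kcnn2 and 1.254 for Ptpre. The difference between the stages was not tested, because the 2-cell values had chosen the genes. None of the zygote differences passed the adjusted threshold of limma.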

How the results depend on the processing

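The number of transcripts that passed the rule moved from 178 to 718 at 2-fold and to 15 at 5-fold. It was 57 when every library had to be apart, 103 with a pseudocount of 1 and 106 with a WT 2-cell mean above 10. It was 197 with geometric means, 128 after median-ratio scaling and 216 after scaling to equal sums, and between 162 and 222 with 1 of the 6 libraries left out in turn. Of the genes chosen in 1 set of libraries, 142 and 131 passed at 2-fold in the other set, compared with 75 and 75 at 3-fold. The share of declining genes lower in cKO was 12.1%, 12.5% and 10.4% after median-ratio scaling in the 3 rising ranges of WT level, and 44.3%, 43.0% and 38.6% at 2-fold. Without 1 cKO 2-cell library it was between 28.6% and 33.4%, between 26.0% and 28.0% and between 18.3% and 27.2%. The ratio of WT to cKO moved by more than the replicate spread for 26 of the 74 members chosen by the naming rule after median-ratio scaling and for 10 after scaling to equal sums, and its direction is fixed by the choice of members. In zygotes limma called 0 members lower and 0 higher under every alternative. At a limma p left unadjusted at 0.05 there were at most 12 lower and 6 higher, both when the zygote libraries were fitted alone. The main fit had 3 and 1. The share of all genes at that p is not given for the zygote libraries alone, so these counts are no result about the members. The replicate numbers are shared between groups but no shared mating is described. Same-numbered zygote libraries deviated together with a correlation of 0.50, and the 2-cell libraries of the same number with -0.24. With the replicate block, 0 members were lower and 0 higher in cKO zygotes. The table gives no counts, so values near the floor of 1 cannot be ranked and 64 of the ratios to cKO are lower bounds.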

Other observations

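Members outside the function groups, named after their values were seen, include genes of defence and RNA silencing and genes of membranes. Ifitm3, an interferon-induced membrane protein that restricts virus entry, was at 407 and 239 in WT and 292 and 298 in cKO zygotes, and then 91.6 and 118 in WT and 46.2 and 21.8 in cKO 2-cell embryos. It lay just inside both thresholds, at 3.09-fold and 3.08-fold. Znfx1, a helicase family gene, was at 18.8 and 15.8 in WT and 15.95 and 14.6 in cKO zygotes, and then 3.61 and 4.62 in WT and 1.31 and 1 in cKO 2-cell embryos, so its cKO value lay at or near the floor. Psen2, a subunit of γ-secretase, had 61.2 and 50.5 in WT and 58.8 and 47.3 in cKO zygotes, and then 9.297 and 10.8 in WT and 3.83 and 1.03 in cKO 2-cell embryos. Pvt1, a long non-coding RNA gene, was at 16.3 and 14.6 in WT and 13.4 and 15.3 in cKO zygotes, and then 5.55 and 3.91 in WT and 1 and 2.06 in cKO 2-cell embryos. In each of these genes the 2-cell genotypes did not overlap, as in every member, and the zygote genotypes differed by less than 1.2-fold in their means.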
